A study of Mus musculus with 6 samples.

Results

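*Ly6a*, *Ly6c1*, *Ly6c2* and *Ly6e* are 4 members of the mouse Ly6 family among the 56748 genes counted in RNA-seq libraries of CD4 T cells. They were selected on values measured in these same libraries, namely the fold change of *Ly6c1* between the groups compared here and the sequence it shares with its neighbours. All 4 passed the filter on low counts, which left 14936 genes. Naïve CD4 cells came from wild-type C57BL/6J mice aged 6 to 10 weeks. The study's methods name spleen and lymph nodes as their source, and the labels name splenocytes. The cells were isolated by negative selection, in which antibodies remove other cell types, and were activated through CD3 and CD28 and polarized towards regulatory T cells (Tregs), with IL-2, TGF-β and antibodies that block IFNγ and IL-4, for 3 days. Antisense oligonucleotides (ASOs), synthetic nucleic acid strands that pair with a chosen RNA, were added at 10 μM from the start. The ASO was either scrambled or directed at *Pgam*, the genes of the glycolytic enzyme phosphoglycerate mutase, and the comparison asks how the 2 groups of cultures differ in transcripts. RNA came from the whole culture without sorting, and each group has 3 libraries. The summed counts were 17588755, 18032805 and 16231127 for scrambled ASO replicates 1, 2 and 3, and 16589933, 15860476 and 16803881 for *Pgam* ASO replicates 1, 2 and 3. The study calls the libraries of a group biological replicates, but the sources used here do not say whether they came from separate animals, so p-values measure only the spread between these samples.

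Ly6 proteins are small, cysteine-rich surface proteins, most of them tied to the membrane by a glycosylphosphatidylinositol (GPI) anchor in place of a transmembrane segment. In mice, *Ly6a* encodes Sca-1, a marker of blood stem cells that activated T cells also carry, and *Ly6c1* and *Ly6c2* encode the nearly identical Ly6C proteins of monocytes, endothelium and some T cells. *Ly6e* encodes a family member found on thymocytes and many other cells, and interferons induce several genes of the family.

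The targeted genes were examined first, since they check the labels. *Pgam1*, the main isoform in most tissues, stood at 600, 478 and 707 CPM (counts per 1000000 of the library's scaled total) in scrambled ASO replicates 1, 2 and 3, and at 658, 661 and 707 in *Pgam* ASO replicates 1, 2 and 3. *Pgam1* was thus not lower under the *Pgam* ASO, with a log2 fold change of 0.18 ± 0.13 (SE, n = 3 against 3) and an adjusted p of 0.331 (edgeR quasi-likelihood test, Benjamini-Hochberg). *Pgam2*, the muscle isoform, was much rarer, at 5.23, 6.75 and 2.85 CPM with scrambled ASO against 2.98, 2.69 and 2.60. Its log2 fold change of -0.84 ± 0.31 (SE) did not pass the threshold of 0.05 either, with an edgeR quasi-likelihood adjusted p of 0.0854. Because *Pgam1* transcripts were not lower in the group whose label names an ASO against them, that group is called the libraries labelled *Pgam* ASO throughout, and every direction given here is relative to that label. The protein was not measured in these libraries.

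The 4 genes lie close together on chromosome 15 (GENCODE M21 annotation, build GRCm38). *Ly6e* is at chr15:74955051-74959905 on the + strand, *Ly6a* at chr15:74994877-74998031 on the − strand, *Ly6c1* at chr15:75044018-75048830 on the − strand and *Ly6c2* at chr15:75108158-75111970 on the − strand. Their identifiers are ENSMUSG00000022587, ENSMUSG00000075602, ENSMUSG00000079018 and ENSMUSG00000022584 in that order. The first 120 bases of coding sequence are shown for the 3 genes that resemble each other, because most differences between *Ly6c1* and *Ly6c2* fall there. Capitals mark a base that differs from *Ly6c1* at the same position, of which *Ly6c2* has 6 and *Ly6a* has 8. The spliced bases lie within chr15:75047420-75048511 for *Ly6c1*, chr15:75110578-75111667 for *Ly6c2* and chr15:74996519-74997604 for *Ly6a*, all on the − strand of GRCm38 and with introns between them.

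Ly6c1, bases 1 to 120: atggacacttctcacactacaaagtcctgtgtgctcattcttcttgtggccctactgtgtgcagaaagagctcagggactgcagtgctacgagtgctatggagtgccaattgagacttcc

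Ly6c2, bases 1 to 120: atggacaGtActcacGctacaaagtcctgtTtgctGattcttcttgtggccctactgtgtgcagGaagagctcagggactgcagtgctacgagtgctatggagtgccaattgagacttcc

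Ly6a, bases 1 to 120: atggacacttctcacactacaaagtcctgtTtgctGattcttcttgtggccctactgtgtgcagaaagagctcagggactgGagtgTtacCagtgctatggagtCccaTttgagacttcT

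The next 120 bases, 121 to 240, are shown because they are identical in *Ly6c1* and *Ly6c2*, with 0 differences, while *Ly6a* differs at 33 positions, again in capitals. They lie within chr15:75045558-75047419 for *Ly6c1*, chr15:75108699-75110577 for *Ly6c2* and chr15:74995427-74996518 for *Ly6a*, on the − strand of GRCm38.

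Ly6c1 and Ly6c2, bases 121 to 240: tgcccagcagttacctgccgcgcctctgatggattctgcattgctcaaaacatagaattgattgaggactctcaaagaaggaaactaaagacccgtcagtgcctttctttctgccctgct

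Ly6a, bases 121 to 240: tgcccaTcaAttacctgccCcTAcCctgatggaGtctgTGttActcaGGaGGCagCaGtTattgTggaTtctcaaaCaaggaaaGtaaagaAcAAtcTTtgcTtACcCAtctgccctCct

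Over the whole coding sequence, *Ly6c1* and *Ly6c2* were identical at 384 of 393 aligned bases (97.7%), with an unbroken identical run of 188 bases from base 66 to base 253. *Ly6a* matched *Ly6c1* at 329 of 393 aligned bases (83.7%) and *Ly6c2* at 328 of 393 (83.5%), with longest runs of 48 and 52 bases. *Ly6e* stood apart. It matched the other members at 55.4% to 57.6% of aligned bases, and no identical run was longer than 8 bases.

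Kallisto, which the authors used, assigns a read by the short stretches it holds and divides a read that fits several genes between them by estimate. Stretches of 31 bases, Kallisto's default length, were therefore counted on the transcripts of GENCODE M21. That annotation may not be the index the authors used, because the deposited table also lists genes that M21 does not hold (52073 of its 56748 genes are in M21). *Ly6c1* shared 822 of its 1758 distinct stretches (46.8%) with at least 1 other gene, *Ly6a* 402 of 1259 (31.9%), *Ly6c2* 645 of 2714 (23.8%) and *Ly6e* 17 of 4025 (0.422%). By pairs, *Ly6c1* and *Ly6c2* had 581 stretches in common, which is 33.0% of those of *Ly6c1* and 21.4% of those of *Ly6c2*. *Ly6a* and *Ly6c1* had 276 in common, or 21.9% and 15.7% of each. *Ly6a* and *Ly6c2* had 84 in common, or 6.67% and 3.10%. The 3 similar genes thus form a chain in which *Ly6c1* overlaps with both of the others, and the counts of each of the 3 are uncertain to the extent that the estimate divided reads between them. *Ly6c1* also had 936 stretches found in no other gene.

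**Figure D1:**
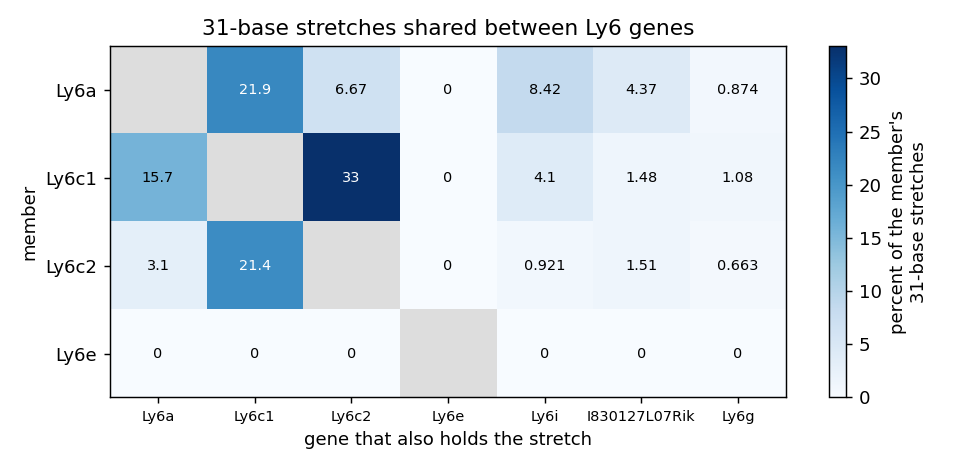
Percent of the distinct 31-base stretches of each gene (rows) that also occur in transcripts of another gene (columns), on GENCODE M21. *Ly6c1* and *Ly6c2* share most, at 33.0% of the stretches of *Ly6c1*, and *Ly6e* shares none with the other genes shown.

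A read of 75 bases can be told apart more often than a stretch of 31, and shared stretches of 75 bases made up 19.0% of *Ly6c1*, 9.46% of *Ly6c2*, 6.33% of *Ly6a* and 0 of *Ly6e*. Beside the 3 similar genes, 57 genes shared at least 5% of their own stretches, or of those of a member, with *Ly6a*, *Ly6c1* or *Ly6c2*. Of these, 54 are microRNA genes, which are short and are not in the deposited table. Only *Ly6i*, *I830127L07Rik* and *Gm21961* are in the table, and 0 of them passed the filter on low counts. *Ly6i*, a neighbouring family member at chr15:74979534-74983430, had 4, 4 and 6 counts with scrambled ASO and 5, 9 and 7 in the libraries labelled *Pgam* ASO. The neighbouring pseudogene *I830127L07Rik* had 3, 1 and 4 counts against 1, 0 and 0, and *Gm21961* had 0 in every library. These partners therefore held few of the counts of the group.

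Sca-1 transcripts came to 81.5, 90.8 and 80.1 CPM for *Ly6a* in scrambled ASO replicates 1, 2 and 3, and to 136, 121 and 121 CPM in *Pgam* ASO replicates 1, 2 and 3. Every library labelled *Pgam* ASO was above every scrambled ASO library, and the replicates within a group lay close together. The group means were 84.1 ± 5.80 and 126 ± 8.42 CPM (SD, n = 3 each), and the log2 fold change was 0.58 ± 0.09 (SE).

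*Ly6c1* went the other way. Its counts were 112, 272 and 23 in scrambled ASO replicates 1, 2 and 3 and 7, 5 and 8 in *Pgam* ASO replicates 1, 2 and 3, or 6.30, 14.7 and 1.43 CPM against 0.435, 0.321 and 0.473. The groups did not overlap, but the scrambled ASO libraries were far from each other: replicate 2 was 10.3 times as high as replicate 3, while the libraries labelled *Pgam* ASO were all low and alike. The means were 7.47 ± 6.71 CPM and 0.410 ± 0.0793 CPM (SD, n = 3 each), so that the scrambled ASO mean was 18.2 times the other. The log2 fold change was -4.17 ± 0.91 (SE), and without scrambled ASO replicate 2 it was -3.22. A single count equalled 0.0540 to 0.0642 CPM, so the values labelled *Pgam* ASO rest on fewer than 10 counts each.

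*Ly6c2*, the near-copy of *Ly6c1*, was at 27, 37 and 37 counts with scrambled ASO and at 37, 65 and 55 counts in the libraries labelled *Pgam* ASO. This equals 1.52, 2.0 and 2.29 CPM against 2.30, 4.17 and 3.25, so the groups only just failed to overlap, with 2.29 as the highest scrambled ASO value and 2.30 as the lowest of the others. Both of these libraries held 37 counts, and by total count alone the scrambled ASO library would be the higher. The means were 1.94 ± 0.390 and 3.24 ± 0.936 CPM (SD, n = 3 each) and the log2 fold change was 0.74 ± 0.31 (SE). In direction, *Ly6c2* thus resembled *Ly6a* and not *Ly6c1*.

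*Ly6e* was abundant throughout, at 573, 663 and 511 CPM in scrambled ASO replicates 1, 2 and 3 and at 641, 687 and 766 CPM in *Pgam* ASO replicates 1, 2 and 3. The groups overlapped, since scrambled ASO replicate 2 was above *Pgam* ASO replicate 1. Means were 582 ± 76.5 and 698 ± 62.8 CPM (SD, n = 3 each), with a log2 fold change of 0.26 ± 0.11 (SE).

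**Figure D2:**
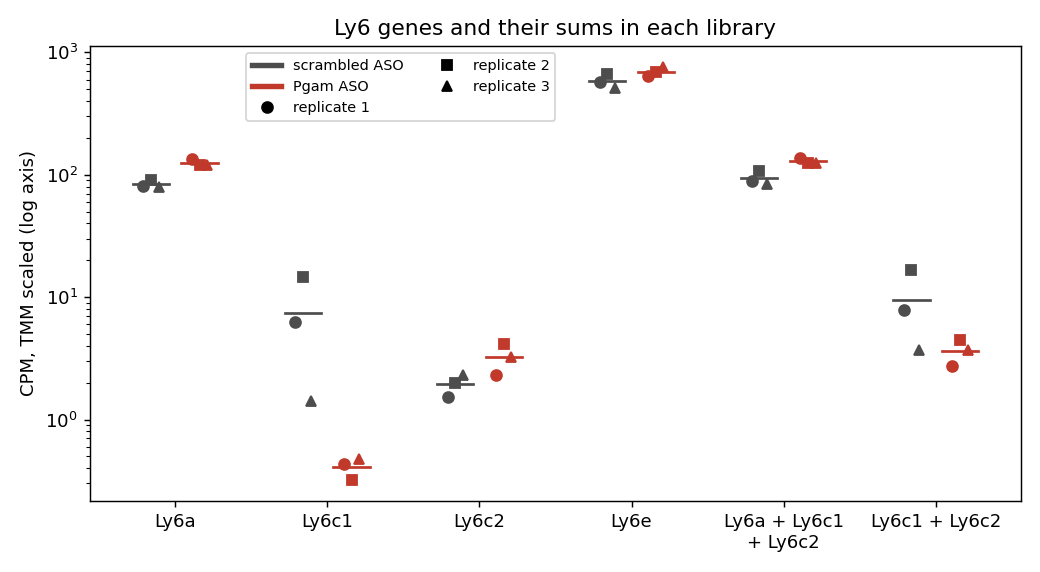
Level of each member and of the summed genes in each of the 6 libraries, in CPM on a log axis, with the mean of each group. The *Ly6c1* points of scrambled ASO spread from 1.43 to 14.7 CPM and all lie above the 3 points labelled *Pgam* ASO.

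Of the 4 members, 3 had groups that did not overlap in CPM, *Ly6c2* among them only through the scaling. Across all 14936 tested genes, 2565 (17.2%) were called by the edgeR quasi-likelihood test, 1199 (8.03%) higher and 1366 (9.15%) lower, and 5894 (39.5%) had groups that did not overlap. Of the same 14936 genes, DESeq2 called 3213 and limma-voom 2522. The number of genes called was 620 without scrambled ASO replicate 1, 1256 without scrambled ASO replicate 2, 871 without *Pgam* ASO replicate 1 and 391 without *Pgam* ASO replicate 2, while it was 3484 without scrambled ASO replicate 3 and 3319 without *Pgam* ASO replicate 3. The median log2 fold change over all tested genes was -0.01. Because this contrast was used to choose the members, nothing is read from their number, and their fold changes are given as a description without a test. In RNA from a whole culture, fewer cells of a type and less RNA per cell cannot be told apart.

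Summing *Ly6a*, *Ly6c1* and *Ly6c2* gives a value that does not depend on how reads were divided between these 3. The sum was 1588, 1990 and 1353 counts in scrambled ASO replicates 1, 2 and 3 and 2228, 1957 and 2109 counts in *Pgam* ASO replicates 1, 2 and 3, or 89.4, 107 and 83.8 CPM against 138, 126 and 125. On the CPM scale the 3 libraries labelled *Pgam* ASO were all above the 3 others, although scrambled ASO replicate 2 held more raw counts than *Pgam* ASO replicate 2. The means were 93.6 ± 12.4 and 130 ± 7.63 CPM (SD, n = 3 each), and the log2 fold change of the sum was 0.47 ± 0.10 (SE). The sum therefore followed *Ly6a*, which held between 84.5% and 98.0% of it. Adding the counts of the genes that share stretches with the 3 left the log2 fold change at 0.47 ± 0.10 (SE).

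Taken as a pair, *Ly6c1* and *Ly6c2* had 139, 309 and 60 counts with scrambled ASO and 44, 70 and 63 counts in the libraries labelled *Pgam* ASO, or 7.82, 16.7 and 3.72 CPM against 2.73, 4.49 and 3.73. Here the groups overlapped, because scrambled ASO replicate 3 was level with *Pgam* ASO replicates 2 and 3 or below them. The means were 9.41 ± 6.63 and 3.65 ± 0.882 CPM (SD, n = 3 each) and the log2 fold change was -1.37 ± 0.50 (SE). Without scrambled ASO replicate 2 it was -0.67, so the size of this value rests largely on that library.

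**Figure D3:**
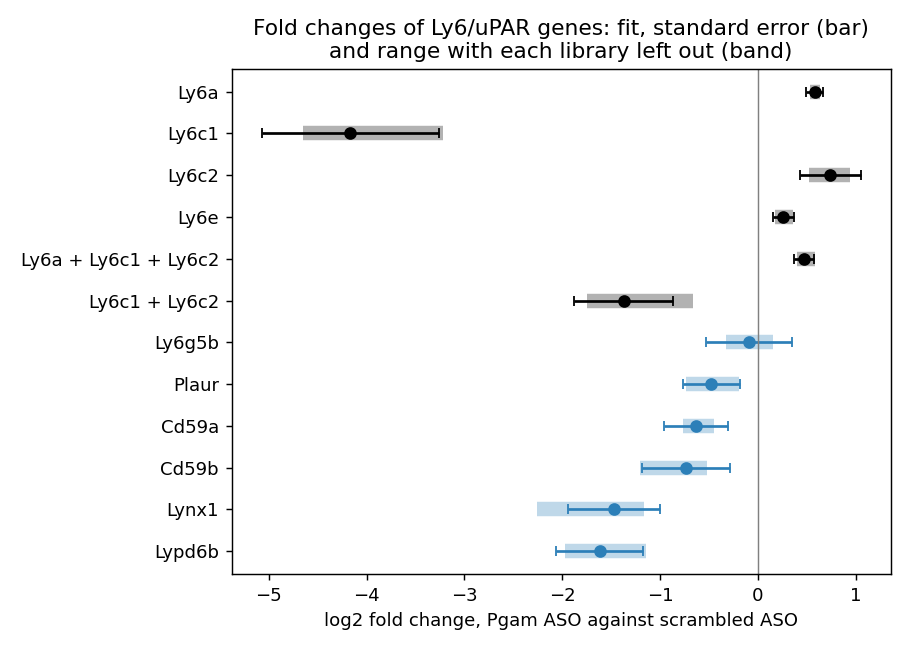
Log2 fold change, labelled *Pgam* ASO over scrambled ASO, of the 4 genes, the sums and the 6 tested relatives. Points are fitted values, bars standard errors and bands the range with each library left out. The band of *Ly6c1* reaches from -4.65 to -3.22, and that of the sum of the 3 similar genes stays between 0.40 and 0.58.

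The share of the 3-gene sum given to *Ly6c1* shows the division within each library. It was 7.05% (95% interval 5.84 to 8.42), 13.7% (12.2 to 15.3) and 1.70% (1.08 to 2.54) in scrambled ASO replicates 1, 2 and 3. In *Pgam* ASO replicates 1, 2 and 3 it was 0.314% (0.126 to 0.646), 0.255% (0.0830 to 0.595) and 0.379% (0.164 to 0.746). These are exact Clopper-Pearson intervals, and they cover counting error only, not the error of dividing shared reads. The intervals of the 3 scrambled ASO libraries lie apart from each other and above those of the libraries labelled *Pgam* ASO, which overlap. The group means were 7.47% ± 6.0 and 0.316% ± 0.0619 (SD, n = 3 each), a difference of 7.16 percentage points that was 4.06 without scrambled ASO replicate 2.

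The share of *Ly6c2* varied less, at 1.70%, 1.86% and 2.73% of the 3-gene sum with scrambled ASO against 1.66%, 3.32% and 2.61%, and the groups overlapped. *Ly6a* made up the remainder, 91.2%, 84.5% and 95.6% against 98.0%, 96.4% and 97.0%. Within the pair of Ly6C genes, *Ly6c1* held 80.6%, 88.0% and 38.3% of counts in scrambled ASO replicates 1, 2 and 3, and 15.9%, 7.14% and 12.7% in *Pgam* ASO replicates 1, 2 and 3. *Ly6c1* was thus the larger of the pair in scrambled ASO replicates 1 and 2, and *Ly6c2* was the larger in the other 4 libraries. Whether reads of *Ly6c1* were assigned to *Ly6c2*, or the reverse, was not tested, since the reads were not used here.

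**Figure D4:**
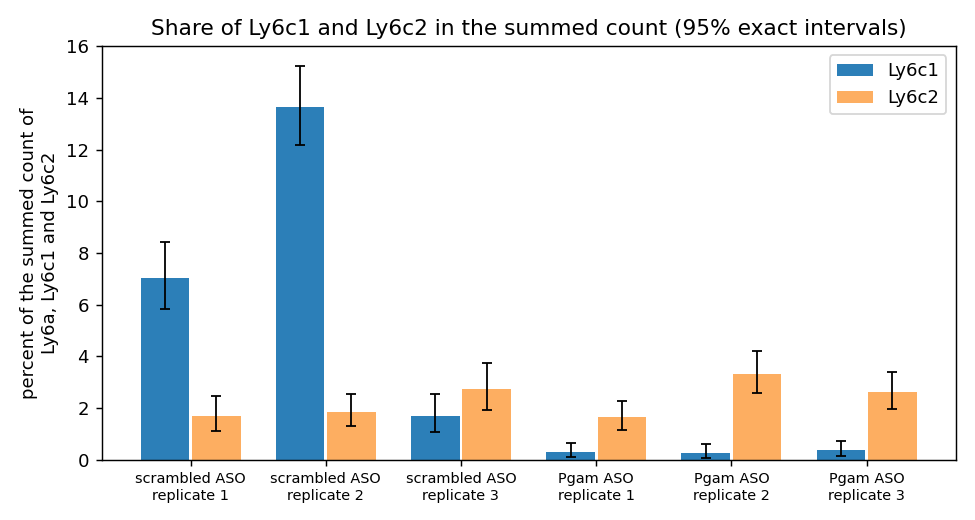
Percent of the summed counts of *Ly6a*, *Ly6c1* and *Ly6c2* that *Ly6c1* and *Ly6c2* each held, by library, with exact 95% intervals for counting error. For *Ly6c1* the values run from 1.70% to 13.7% with scrambled ASO and from 0.255% to 0.379% in the libraries labelled *Pgam* ASO.

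To order the genes by level, CPM were divided by transcript length. With scrambled ASO, *Ly6e* was highest at 255 ± 33.5 CPM per kb, then *Ly6a* at 88.1 ± 6.07, *Ly6c1* at 8.85 ± 7.95 and *Ly6c2* at 2.36 ± 0.475 CPM per kb (SD, n = 3 each). *Ly6c1* and *Ly6c2* did not differ beyond their spread, while the other neighbours in the order did. In the libraries labelled *Pgam* ASO, the order per length was *Ly6e* at 306 ± 27.6, *Ly6a* at 132 ± 8.81, *Ly6c2* at 3.94 ± 1.14 and *Ly6c1* at 0.485 ± 0.0940 CPM per kb (SD, n = 3 each). All neighbours in that order were separated by more than their spread.

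Genes outside the family were compared with each member by the shape of their log2 CPM over the 6 libraries, as the root mean square (RMS) difference after centring on each gene's mean. Nearest to *Ly6c1* were *Gm20743* (RMS difference 0.209), *Nod1*, a sensor of bacterial peptidoglycan (0.352), and *Gm37403* (0.409). *Nod1* had 173, 342 and 51 counts in scrambled ASO replicates 1, 2 and 3 and 6, 9 and 22 in *Pgam* ASO replicates 1, 2 and 3. *Gm20743* had 68, 245 and 12 counts against 2, 1 and 6, and *Gm37403* had 27, 154 and 15 against 0, 0 and 1. All 3 had their highest count in scrambled ASO replicate 2 and their lowest scrambled ASO count in replicate 3, the order seen for *Ly6c1*. They were picked for likeness to *Ly6c1* in these same libraries, so the shared order is not a separate result. For *Ly6a* the nearest genes were *Gm45902* (0.0427), *Kif3a*, a subunit of a kinesin motor (0.0516), and *Cgas*, a sensor of cytosolic DNA (0.0533). For *Ly6c2* they were *B4galt4*, a galactosyltransferase (0.162), *Themis*, which acts in T cell receptor signalling (0.165), and *A630089N07Rik* (0.176). *Ly6e* was nearest to *Vasn* (0.0437), *Asrgl1* (0.0473) and *Ddx58*, a sensor of viral RNA also called RIG-I (0.0629). The sum of the 3 similar genes was nearest to *Cgas* (0.0569), *Nedd9* (0.0838) and *Arhgap31* (0.0863). These are descriptions over 6 libraries, picked from 9543 genes, or 11952 for *Ly6c1*.

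Few genes of the wider family of Ly6 and urokinase receptor (uPAR) genes had enough counts to be tested. Of 52 genes listed, 47 were in the table, and of the 43 beside the members 18 had 0 counts in every library. A count of 0 allows a level of up to 0.162 to 0.192 CPM, taking 3 counts as the floor. Another 19 had counts but did not pass the filter, and 6 were tested. Among those 6, 1 was called lower and 0 higher by the edgeR quasi-likelihood test, with 2 at an unadjusted p under 0.05, where 17.2% of all tested genes were called. DESeq2 and limma-voom each called 2, both lower, out of 3213 and 2522 calls over all 14936 tested genes. The median log2 fold change of the 6 was -0.68, against -0.01 over all tested genes. All 6 had a negative estimate under every scaling tried, and that of *Ly6g5b* turned to 0.15 without scrambled ASO replicate 2 and without *Pgam* ASO replicate 1.

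The call was *Lypd6b*, which encodes a modulator of nicotinic acetylcholine receptors, with 34, 80 and 34 counts in scrambled ASO replicates 1, 2 and 3 and 21, 8 and 15 in *Pgam* ASO replicates 1, 2 and 3. It was lower in all 3 libraries labelled *Pgam* ASO than in any other, with a log2 fold change of -1.62 ± 0.44 (SE) and an adjusted p of 0.0347 (edgeR quasi-likelihood test, Benjamini-Hochberg). The call was lost, by the same test and adjustment, without scrambled ASO replicate 1 (adjusted p = 0.0616), scrambled ASO replicate 2 (0.124), *Pgam* ASO replicate 1 (0.0509), *Pgam* ASO replicate 2 (0.137) or *Pgam* ASO replicate 3 (0.0532). *Lynx1*, a relative that also binds nicotinic receptors, had 41, 38 and 26 counts against 6, 7 and 22. Its groups did not overlap, and its log2 fold change of -1.47 ± 0.47 (SE) had an edgeR quasi-likelihood adjusted p of 0.0540. *Lynx1* passed the threshold without scrambled ASO replicate 3 (edgeR adjusted p = 0.0488) and without *Pgam* ASO replicate 3 (0.0105), where its log2 fold change was -2.25.

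The remaining tested relatives did not pass. *Plaur*, the urokinase receptor itself, had a log2 fold change of -0.48 ± 0.29 (SE, edgeR quasi-likelihood adjusted p = 0.283). *Cd59a* and *Cd59b*, which encode inhibitors of the complement attack complex, were at -0.63 ± 0.33 (SE, edgeR adjusted p = 0.196) and -0.73 ± 0.45 (SE, edgeR adjusted p = 0.274). *Ly6g5b* was at -0.09 ± 0.44 (SE, edgeR adjusted p = 0.907). The genes at 0 in every library included *Gpihbp1*, which anchors lipoprotein lipase on capillary endothelium, and the secreted members *Slurp1* and *Slurp2*.

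Because most Ly6 proteins carry a GPI anchor, the genes that make and remodel it were examined. Of 34 listed, 32 were tested, and the edgeR quasi-likelihood test called 3 (9.38%), 1 higher and 2 lower, against 17.2% of all tested genes. The median log2 fold change of the list was -0.04. *Pigk*, the catalytic subunit of the transamidase that attaches the anchor, rose, with a log2 fold change of 0.49 ± 0.10 (SE) and an edgeR quasi-likelihood adjusted p of 0.0135. *Pgap1*, which removes an acyl chain from the anchor, fell, with a log2 fold change of -0.93 ± 0.25 (SE, edgeR adjusted p = 0.0343). *Pigx*, a subunit of a mannosyltransferase, fell, with a log2 fold change of -0.37 ± 0.10 (SE, edgeR adjusted p = 0.0359). In each case the groups did not overlap, which held for 39.5% of all tested genes. The most abundant gene of the list, *Pigs*, another transamidase subunit, ran from 77.8 to 90.4 CPM over the 6 libraries, with a log2 fold change of 0.04 ± 0.09 (SE, edgeR adjusted p = 0.765).

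Each of these 3 anchor calls was lost for at least 2 of the left-out libraries, while the fold changes kept their direction. By the edgeR quasi-likelihood test, 0 of the 32 were called without scrambled ASO replicate 1 and 0 without *Pgam* ASO replicate 2, each with 5 at an unadjusted p under 0.05, and 1 was called without scrambled ASO replicate 2 and 1 without *Pgam* ASO replicate 1. In that order, these fits called 620 of 15413, 391 of 15573, 1256 of 15273 and 871 of 15551 genes in all. With all libraries, DESeq2 called 4 and limma-voom 3, out of 3213 and 2522 calls over all tested genes. *Pigk* was lost without scrambled ASO replicate 1 (edgeR adjusted p = 0.0632) and without *Pgam* ASO replicate 2 (0.0850), with log2 fold changes of 0.49 and 0.45. *Pgap1* was lost without scrambled ASO replicate 1 (edgeR adjusted p = 0.0815), scrambled ASO replicate 2 (0.101), *Pgam* ASO replicate 1 (0.104) or *Pgam* ASO replicate 2 (0.0874), with log2 fold changes from -1.09 to -0.67. *Pigx* was lost without scrambled ASO replicate 1 (edgeR adjusted p = 0.0769), scrambled ASO replicate 2 (0.0893), scrambled ASO replicate 3 (0.0541), *Pgam* ASO replicate 1 (0.125) or *Pgam* ASO replicate 2 (0.129), with log2 fold changes from -0.42 to -0.30.

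*Ly6a*, *Ly6c1*, *Ly6c2* and *Ly6e* are known as interferon-stimulated genes, so other genes of that kind were examined as a list that leaves them out. Of 65 listed, 62 were tested and 24 (38.7%) were called by the edgeR quasi-likelihood test, 9 higher and 15 lower, against 17.2% of all tested genes called, 8.03% higher and 9.15% lower. The median log2 fold change of the list was -0.17 and that of all tested genes -0.01, and the list itself was not tested. The list thus moved in both directions. *Gbp2*, a guanylate-binding GTPase that acts on intracellular pathogens, stood at 82.8, 74.8 and 77.6 CPM with scrambled ASO and at 11.6, 16.2 and 16.4 CPM in the libraries labelled *Pgam* ASO. Its log2 fold change was -2.41 ± 0.13 (SE, edgeR quasi-likelihood adjusted p = 3.71e-05). *Gbp3* and *Gbp5*, of the same GTPase family, fell as well, with log2 fold changes of -1.72 ± 0.22 (SE, edgeR adjusted p = 0.00173) and -1.62 ± 0.19 (SE, edgeR adjusted p = 0.00179).

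*Ifitm3*, which blocks the entry of enveloped viruses, went up instead, from 8.50, 7.72 and 11.7 CPM with scrambled ASO to 42.9, 38.8 and 41.7 CPM. Its log2 fold change was 2.15 ± 0.15 (SE, edgeR quasi-likelihood adjusted p = 0.000183). The most abundant gene of the list was *Samhd1*, a dNTP hydrolase that restricts viruses, at 774, 1059 and 599 CPM in scrambled ASO replicates 1, 2 and 3 and at 269, 319 and 407 CPM in *Pgam* ASO replicates 1, 2 and 3. *Samhd1* fell, with a log2 fold change of -1.29 ± 0.23 (SE, edgeR adjusted p = 0.0144), a call that was lost without *Pgam* ASO replicate 2 (edgeR adjusted p = 0.0683). *Gbp2*, *Gbp3*, *Gbp5* and *Ifitm3* were called in all 13 alternative analyses. The count of 24 for the list was 10 without scrambled ASO replicate 1, 13 without *Pgam* ASO replicate 1 and 7 without *Pgam* ASO replicate 2. In that order, these fits called 620 of 15413, 871 of 15551 and 391 of 15573 genes in all, so calls over all genes fell as well.

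**Figure D5:**
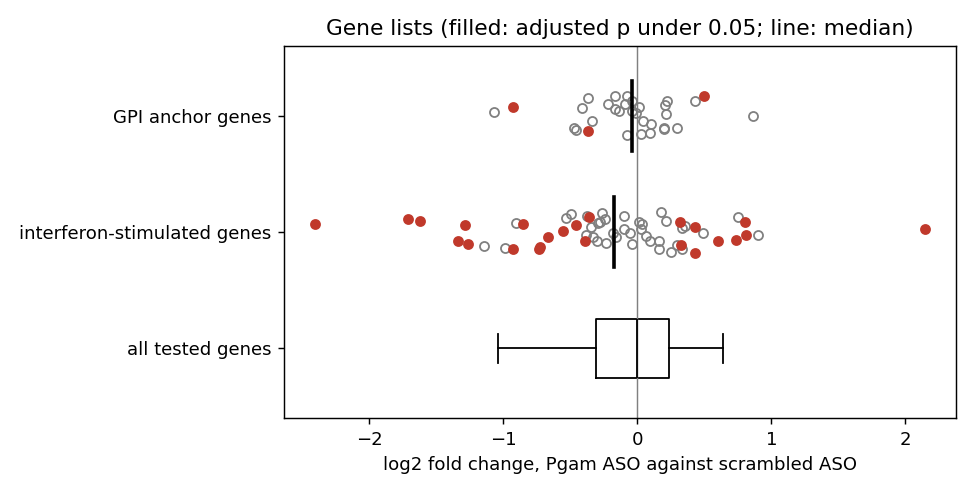
Log2 fold change, labelled *Pgam* ASO over scrambled ASO, of each tested gene of the GPI anchor and interferon-stimulated lists, filled where called, with a line at the list's median. The box shows the quartiles of all tested genes, -0.31 and 0.23, and their median, with whiskers to percentiles 5 and 95. The interferon-stimulated genes reach from -2.41 (*Gbp2*) to 2.15 (*Ifitm3*).

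Markers of the cultured cells and of other cells were then examined, because Ly6 genes mark several cell types, and their calls stand beside the 17.2% called among all tested genes. CD4 T cell markers were abundant, with *Cd4* the highest at 775, 804 and 732 CPM in scrambled ASO replicates 1, 2 and 3 and at 650, 651 and 697 CPM in *Pgam* ASO replicates 1, 2 and 3. Of 11 tested, 1 was called higher (*Cd40lg*) and 3 lower (*Cd28*, *Cd5* and *Trac*). Of the 9 Treg markers, 1 was called higher and 3 lower (*Foxp3*, *Ikzf2* and *Nrp1*). The higher one was *Il2ra*, the IL-2 receptor α chain and the most abundant of the list, at 1946, 1627 and 2216 CPM against 2908, 2900 and 2495. *Foxp3*, the defining transcription factor, ran at 282, 371 and 222 CPM with scrambled ASO and at 89.7, 109 and 131 CPM in the libraries labelled *Pgam* ASO. Apart from *Cd4* and *Il2ra*, these and the other called markers below were named after their values were seen, unless they lead their list.

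Without scrambled ASO replicate 1 or without *Pgam* ASO replicate 2, the calls among CD4 T cell markers were reduced to 1 (*Cd28*), and without scrambled ASO replicate 3 or *Pgam* ASO replicate 3 they were 7 and 6, in fits that called 3484 of 15508 and 3319 of 15464 genes. Among Treg markers only *Foxp3* was called without scrambled ASO replicate 1, *Pgam* ASO replicate 1 or *Pgam* ASO replicate 2. Over all genes, the fits without these 3 libraries called 620 of 15413, 871 of 15551 and 391 of 15573, in that order. The totals of the left-out fits stand beside the marker lists below as well. Of 2 CD8 T cell markers, *Cd8a* was called higher, though not without scrambled ASO replicate 1 or *Pgam* ASO replicate 1, and the more abundant *Cd8b1* ran from 7.25 to 10.4 CPM.

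Endothelial cells are known for Ly6C. Of 10 endothelial markers, 3 were tested and 1, *Pecam1*, was called lower, and *Cldn5* was at 0 in every library. The list summed to 92.2, 149 and 68.8 CPM in scrambled ASO replicates 1, 2 and 3 and to 32.7, 38.3 and 53.3 CPM in *Pgam* ASO replicates 1, 2 and 3. Nearly all of this was *Pecam1*, an adhesion molecule also carried by leukocytes, at 88.7, 146 and 63.8 CPM against 29.4, 35.5 and 48.8. The other 9 genes together summed to between 2.82 and 5.02 CPM in the 6 libraries, and the endothelial cadherin gene *Cdh5* had 1 count in all. Among the scrambled ASO libraries, *Ly6c1*, *Foxp3*, *Ly6a*, *Ly6e*, *Cd4* and *Samhd1* were each highest in replicate 2 and lowest in replicate 3. *Il2ra* had the reverse order, and how many of all tested genes have either order was not counted. *Pecam1* too was highest in scrambled ASO replicate 2 and, among the scrambled ASO libraries, lowest in replicate 3. Its log2 fold change was -1.39 ± 0.34 (SE, edgeR quasi-likelihood adjusted p = 0.0412), and it was not called without scrambled ASO replicate 1 (edgeR adjusted p = 0.0926), scrambled ASO replicate 2 (0.0566), *Pgam* ASO replicate 1 (0.122) or *Pgam* ASO replicate 2 (0.132), nor with all libraries and no filter on low counts (0.154).

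Monocytes are also known for Ly6C, and the negative selection of naïve CD4 cells is meant to remove them and other non-T cells. Their 12 markers summed to 13.9, 16.3 and 13.0 CPM with scrambled ASO and to 10.1, 10.3 and 11.7 CPM in the libraries labelled *Pgam* ASO, with *Cd68* the most abundant and *Ms4a7* at 0 in every library. Of 6 tested, 0 were called by the edgeR quasi-likelihood test, with 1 at an unadjusted p under 0.05, and DESeq2 and limma-voom called 0 as well. Neutrophil markers summed to 5.46, 3.89 and 2.29 CPM against 5.90, 5.52 and 5.50, led by *Ngp* and with *Retnlg* at 0. Of 4 tested neutrophil markers 0 were called by edgeR, DESeq2 or limma-voom, and 0 had an unadjusted p under 0.05 in edgeR.

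B cell and plasma cell markers summed to 330, 459 and 223 CPM in scrambled ASO replicates 1, 2 and 3 and to 87.4, 121 and 151 CPM in *Pgam* ASO replicates 1, 2 and 3. Most of this was *Ighm*, the immunoglobulin μ heavy chain, at 320, 447 and 216 CPM against 75.6, 111 and 142, while the other 8 genes together summed to between 7.37 and 12.2 CPM. Of 6 tested, only *Ighm* was called by edgeR, lower by a log2 fold change of -1.58 ± 0.33 (SE, edgeR adjusted p = 0.0282), and DESeq2, which made more calls over all genes, called 3, as did edgeR without scrambled ASO replicate 3 or without *Pgam* ASO replicate 3. *Ighm* had the same order among the scrambled ASO libraries as *Ly6c1*, *Ly6a*, *Ly6e* and *Cd4*. Its call was lost without scrambled ASO replicate 1 (edgeR adjusted p = 0.0792), scrambled ASO replicate 2 (0.0954), *Pgam* ASO replicate 1 (0.0639) or *Pgam* ASO replicate 2 (0.102). The call was also lost with all libraries and no filter on low counts (edgeR adjusted p = 0.106).

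Dendritic cell markers summed to between 184 and 256 CPM with scrambled ASO and between 142 and 168 CPM in the other group, with *Cd74*, the class II invariant chain, on top and called lower, and with *Cd209a* and *Clec9a* at 0. The call of *Cd74* was lost without *Pgam* ASO replicate 2 (edgeR adjusted p = 0.0646). Plasmacytoid dendritic cell markers summed to between 30.7 and 41.9 CPM, led by *Runx2*, with *Siglech* and *Cox6a2* at 0. Of 3 tested, 0 were called by edgeR, DESeq2 or limma-voom, with 2 at an unadjusted p under 0.05 in edgeR, and 1 was called without *Pgam* ASO replicate 3 (*Ccr9*).

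NK cell markers summed to between 30.1 and 66.0 CPM, led by *Eomes*, a T-box factor that T cells also make. *Eomes* was called lower, but not without scrambled ASO replicate 1 (edgeR adjusted p = 0.0766), *Pgam* ASO replicate 1 (0.0530) or *Pgam* ASO replicate 2 (0.0893), and *Klrb1c* and *Klra8* were at 0. Without scrambled ASO replicate 2, 2 NK cell markers were called, *Eomes* and *Prf1*, both lower. Without *Pgam* ASO replicate 3 they were *Eomes*, lower, and *Klrk1*, higher. Mast cell and basophil markers summed to at most 2.38 CPM with scrambled ASO and 6.71 CPM in the libraries labelled *Pgam* ASO, led by *Cpa3*. Of 2 tested, *Gata2* was called higher by edgeR, *Cpa3* by limma-voom and both by DESeq2. With a library left out, edgeR called *Cpa3* without scrambled ASO replicate 2, *Mcpt8* without scrambled ASO replicate 3, and *Gata2* with *Mcpt8* without *Pgam* ASO replicate 3, all higher. Without scrambled ASO replicate 1, *Pgam* ASO replicate 1 or *Pgam* ASO replicate 2, edgeR called 0, with 3, 1 and 2 at an unadjusted p under 0.05. Erythroid markers summed to between 1.55 and 2.87 CPM, led by *Alas2* and with *Hba-a2* at 0. Of 2 tested erythroid markers 0 were called by edgeR, DESeq2 or limma-voom, and 0 had an unadjusted p under 0.05 in edgeR. The part of any of these other cell types in the values of *Ly6c1*, *Ly6c2*, *Ly6a* and *Ly6e* was not tested.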

How the data were processed

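PolyA RNA of 6 samples was sequenced. The authors deposited 1 estimated count for each library and Ensembl gene, which Kallisto gave and which was not normalized. The submitters' processing notes name Kallisto and GRCm38, and the Kallisto version and annotation are not given in the sources used here. All deposited values were whole numbers, so rounding changed nothing, and 0 sample columns were left out. Symbols, positions and transcripts came from GENCODE M21 on GRCm38, which held 52073 of the 56748 genes.

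The groups were compared with edgeR 4.0.16 in R 4.3.3 (filterByExpr, TMM scaling, robust quasi-likelihood test, two-sided, Benjamini-Hochberg, threshold 0.05). TMM factors ran from 0.972 to 1.03. CPM are counts per 1000000 of the scaled library size. The standard error of a fold change is its absolute size divided by the square root of the test's F value. A sum of genes replaced their entries in the whole table before the fit. The procedure was tested on simulated data. Pairs of libraries were checked for duplicates with a chi-square test over genes, whose value per degree of freedom was at least 7.40, so none was taken as a repeat.

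Stretches of 31 bases were counted on both strands. Coding sequences came from principal transcripts, and CPM were divided by the length of that transcript. Likeness used log2(CPM + 0.5) and genes with a mean log2 CPM of at least 3, or 1 for *Ly6c1*.

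Named genes were the members and sums, tested relatives, genes sharing at least 5% of stretches, the 4 called genes with the largest fold changes and the most abundant gene of the GPI anchor and interferon-stimulated lists, the most abundant and the silent genes of each marker list, and the 3 genes most like each member. Further genes were named once their values had been seen. The members and lists were chosen with earlier results of these data known.

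Alternatives were DESeq2 1.42.0, limma-voom (limma 3.58.1), RLE size factors, library size alone, no filter on low counts, a block for replicate number, a minimum of 10 counts in every library, leaving out each library, stretches of 25 and 75 bases, and other genes in the sums.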

Additional observations from a re-analysis of the deposited data

How the results depend on the processing

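The fold changes of the 4 genes and of the sums kept their direction in every alternative run. With each library left out they ranged from 0.53 to 0.64 for *Ly6a*, -4.65 to -3.22 for *Ly6c1*, 0.52 to 0.94 for *Ly6c2*, 0.18 to 0.36 for *Ly6e*, 0.40 to 0.58 for the sum of *Ly6a*, *Ly6c1* and *Ly6c2*, and -1.74 to -0.67 for *Ly6c1* and *Ly6c2*. With at least 10 counts in every library, *Ly6c1* has no value. The difference in its share fell to 4.06 percentage points at the lowest with a library left out and was 57.1 as a share of *Ly6c1* and *Ly6c2* alone, a smaller denominator by construction.

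Genes called ranged from 391 to 3484 with each library left out, against 2565. Other family members called were 2 with DESeq2, limma-voom or no filter, 0 with at least 10 counts in every library (2 tested, edgeR, 1 at an unadjusted p under 0.05), and 0 to 2 with each library left out. GPI anchor genes called were 5 without a filter and 0 to 4 with each library left out, and interferon-stimulated genes called were 7 to 34. Fewer samples remain in the left-out fits, and otherwise the cause was not tested. Shared stretches were 37.4%, 52.1%, 27.9% and 1.01% of *Ly6a*, *Ly6c1*, *Ly6c2* and *Ly6e* at 25 bases and 6.33%, 19.0%, 9.46% and 0 at 75 bases, by construction.

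With a replicate block, 1235 genes were called in all and 0 other family members (edgeR, 2 at an unadjusted p under 0.05). The edgeR adjusted p with the block was 0.0835 for *Lypd6b*, 0.0642 for *Pigx*, 0.0728 for *Pecam1* and 0.0539 for *Ighm*, all called without it. The calls of *Trac*, *Ikzf2*, *Nrp1*, *Cd8a* and *Gata2* were lost with the block too, and interferon-stimulated genes called were 17 against 24. Samples with equal replicate numbers showed no sign of pairing: their deviations from the group means correlated across genes at 0.0787, -0.0390 and -0.282. For unequal numbers the correlations ran from -0.306 (scrambled ASO replicate 2 with *Pgam* ASO replicate 1) to 0.330 (scrambled ASO replicate 2 with *Pgam* ASO replicate 3). Deviations within a group cancel, so these values depend on each other and cannot settle whether samples were paired.

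*Ly6c1* had 5 to 8 counts per library labelled *Pgam* ASO, which limits the precision of its values there.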
